A study of Bos taurus with 9 samples.

Results

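The fibril-forming cartilage collagens II and XI, with collagen IX of the fibril surface, were followed through 4 of their genes, COL2A1, COL9A1, COL11A1 and COL11A2. Every probe set with one of these as its single platform gene symbol was taken, which gave 14 of the 24016 probe sets on the array that are not controls: 4 for COL2A1, 2 for COL9A1, 7 for COL11A1 and 1 for COL11A2. Bovine cells from 3 donor calves aged 3 to 6 months were compared in 3 groups of 3 arrays, with 1 array from each donor in each group. The groups were articular chondrocytes seeded in agarose right after isolation and kept for 28 days in defined medium with 10 ng/mL TGF-beta3, bone marrow mesenchymal stem cells (MSCs) kept in agarose for the same 28 days in the same medium, and undifferentiated MSCs harvested at day 0, as soon as they had been embedded. TGF-beta3 is a growth factor used to drive cartilage formation, and agarose is a gel that keeps cells rounded. No breed, genotype or pooling is stated, and no MSCs cultured without TGF-beta3 and no chondrocytes from day 0 are among the 9 samples. Time in culture and medium therefore cannot be told apart.

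Cartilage gets its tensile strength from thin collagen fibrils. Their body is type II collagen, a trimer of 3 identical chains encoded by COL2A1, copolymerised with type XI collagen, which limits fibril thickness. Type XI holds the products of COL11A1 and COL11A2 together with a further chain that is itself a product of COL2A1. The COL11A1 chain can also assemble with type V chains. Type IX, built from the products of COL9A1, COL9A2 and COL9A3, is attached along the fibril surface, where it links the fibril to its surroundings. COL9A2 and COL9A3 had no named probe set and were not analysed here. The transcription factor SOX9, acting with SOX5 and SOX6 through enhancers, is the known driver of these genes in chondrocytes.

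Values are RMA signals on the log2 scale, so that a difference of 1 is a doubling, and each difference comes as a value ± its standard error from limma and a Benjamini-Hochberg adjusted p over all 24016 probe sets. Calls were made at an adjusted p under 0.05 and no filter on low signal was used, so that all 14 collagen probe sets were tested. The 14 sets rest on 11 source sequences in the platform annotation, and sets of 1 gene read the same transcript, so that they are not independent of each other. An array signal has no fixed relation to transcript number, so that a rank among probe sets places a signal on the scale of its array and does not compare amounts of transcript, and a sum over markers adds signals of unlike probes. Arrays of 1 group correlated between 0.978 and 0.990 across probe sets, and the 2 arrays of donor 3 at day 28 had lower hybridisation controls than the other 7 arrays (bioC at 8.80 on both, against 11.38 to 11.83). The 3′ minus 5′ signal of 6 control transcripts averaged 1.81 ± 0.19 in chondrocytes, 1.81 ± 0.20 in day 28 MSCs and 1.34 ± 0.23 in day 0 MSCs (SD, n = 3 each), and its part in the differences below was not tested. In these bulk samples, fewer expressing cells and less RNA per cell cannot be told apart.

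**Figure D1:**
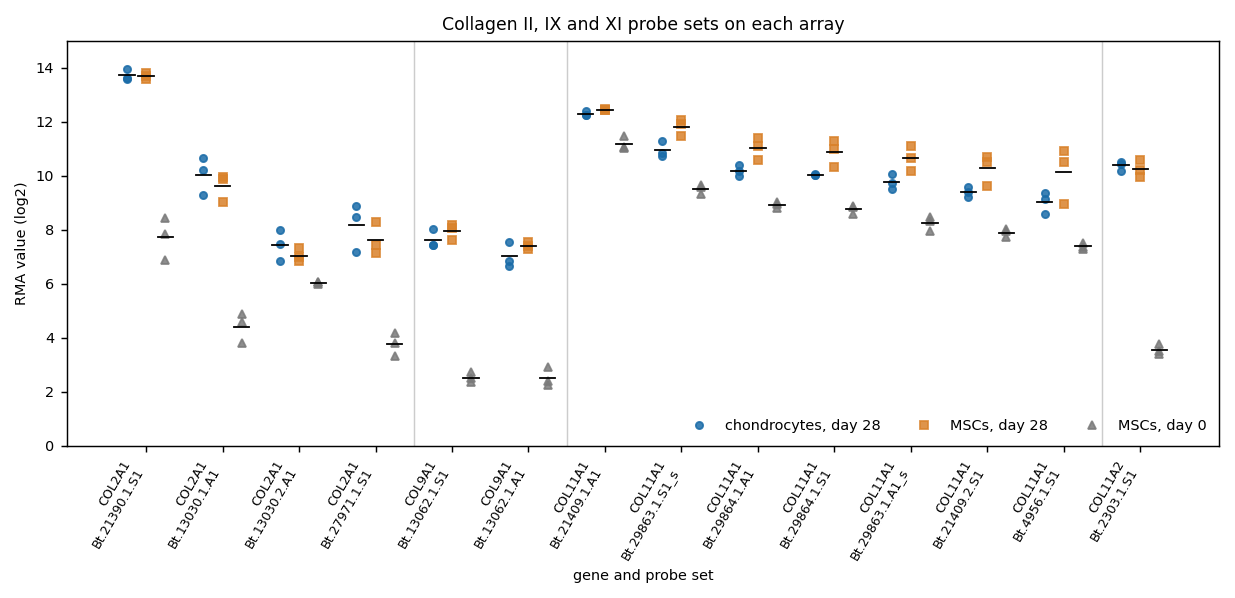
RMA values (log2) of the 14 collagen probe sets on each of the 9 arrays. Points are arrays, coloured by group, and black bars are group means; day 0 MSCs lie below both day 28 groups in every set, and in 6 of the 7 COL11A1 sets chondrocytes lie wholly below day 28 MSCs.

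All 14 collagen probe sets rose in MSCs over the 28 days (limma, adjusted p between 1.09e-07 and 0.0173), beside 14.6% of all probe sets called higher in the same comparison. The day 28 and day 0 arrays did not overlap for any of the 14, which held in this direction for 19.3% of all probe sets. The median difference over the 14 was 2.56, against -0.06 over all probe sets. COL11A2, COL2A1 and COL9A1 changed by about 5 to 7 on the log2 scale in the set of highest mean of each gene, and COL11A1 by far less.

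COL2A1 encodes the chain that makes up the body of the fibril. Its set of highest mean, Bt.21390.1.S1_at, was at 13.68, 13.57 and 13.82 in the day 28 MSCs of donors 1, 2 and 3, against 7.85, 6.89 and 8.44 in their day 0 MSCs. All 3 day 28 arrays lay in a narrow band far above the day 0 arrays, which were spread over more than 1 unit. The difference was 5.96 ± 0.33 (62.3-fold, adjusted p = 6.26e-06). On each of the 6 day 28 arrays this set had the highest value of all 24016 probe sets. A second set, Bt.13030.1.A1_at, was at 9.87, 9.97 and 9.03 in day 28 MSCs and at 4.58, 4.88 and 3.79 in day 0 MSCs, a rise of 5.21 ± 0.41 (37.0-fold, adjusted p = 3.50e-05). Another, Bt.27971.1.S1_at, rose by 3.86 ± 0.45 (14.5-fold, adjusted p = 2.76e-04), with 8.29, 7.45 and 7.15 at day 28 and 3.82, 3.34 and 4.16 at day 0. The fourth set gave a far smaller change: Bt.13030.2.A1_at was at 7.31, 6.98 and 6.85 in day 28 MSCs and at 6.07, 5.99 and 6.07 in day 0 MSCs, and differed by 1.00 ± 0.26 (adjusted p = 0.0173). That call ended without day 28 replicate 1 (0.87, adjusted p = 0.0585), without day 0 replicate 2 (0.97, 0.0517), and without donor 2 (1.01, 0.0523) or donor 3 (1.11, 0.0847). The COL2A1 sets thus ran from 1.00 to 5.96 for 1 gene, with the same direction in every donor.

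COL11A2, whose chain is found mainly in cartilage type XI collagen, had the largest difference of the 14 sets. Its only set, Bt.2303.1.S1_at, was at 10.59, 10.22 and 9.96 in the day 28 MSCs and at 3.51, 3.76 and 3.41 in the day 0 MSCs of donors 1, 2 and 3. The arrays of each group agreed within 1 unit, and the groups were far apart. The rise of 6.70 ± 0.19 (104-fold, adjusted p = 1.09e-07) measured 7.08, 6.46 and 6.55 within the 3 donors. At day 0 the set stood above only 36.7% to 40.3% of all probe sets. Whether such a value is signal or background was not tested, and the fold depends on it.

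COL9A1, which encodes the alpha chain of type IX collagen that reaches out from the fibril, also began low. Bt.13062.1.S1_at was at 8.17, 8.05 and 7.61 in day 28 MSCs, against 2.51, 2.35 and 2.73 in day 0 MSCs, and rose by 5.41 ± 0.22 (42.5-fold, adjusted p = 9.96e-07). Its partner from the same source sequence, Bt.13062.1.A1_at, was at 7.40, 7.54 and 7.28 in day 28 MSCs and at 2.91, 2.25 and 2.41 in day 0 MSCs, a rise of 4.89 ± 0.25 (29.6-fold, adjusted p = 3.95e-06). The pair agreed in size within about 0.5, and in both sets the day 0 arrays were low on the scale, above only 19.2% to 30.7% of all probe sets.

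By its set of highest mean COL11A1, the other chain gene of type XI collagen, was the exception. This set, Bt.21409.1.A1_at, had a high signal already at day 0, before the 28 days in agarose. It was at 12.46, 12.42 and 12.43 in day 28 MSCs and already at 11.05, 11.04 and 11.49 in day 0 MSCs. In day 0 MSCs it exceeded 97.2% to 98.4% of all probe sets. The difference was 1.24 ± 0.15 (2.37-fold, adjusted p = 3.22e-04). The other 6 COL11A1 sets all rose more, by 2.10 to 2.74 (4.29-fold to 6.70-fold, adjusted p between 6.72e-05 and 0.00154). Among them, Bt.29863.1.S1_s_at was at 11.90, 12.06 and 11.49 in day 28 MSCs, against 9.32, 9.65 and 9.58 in day 0 MSCs, and Bt.4956.1.S1_at was at 10.50, 10.93 and 8.96, against 7.28, 7.36 and 7.51. Both show a lower day 28 value in donor 3 than in the other donors, and all 6 sets did: within donor 3 they rose by 1.45 to 1.91, within donor 1 by 2.31 to 3.22 and within donor 2 by 2.41 to 3.56. The set of highest mean sat close to the top of the scale on every day 28 array, above 99.4% to 99.6% of probe sets. Compression at that end was not tested. At day 0 the other 6 COL11A1 sets stood above 70.2% to 90.5% of probe sets. The COL2A1 set of highest mean stood above 66.5% to 81.1% at day 0, a range that overlaps theirs. Its other sets stood above 36.2% to 59.3%.

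By its set of highest mean, the change of COL11A2 exceeded that of COL11A1 by 5.45 ± 0.29 within arrays, and by 5.68, 5.08 and 5.61 in donors 1, 2 and 3. COL2A1 exceeded COL11A1 by 4.72 ± 0.35 and COL9A1 exceeded it by 4.17 ± 0.18, again in all 3 donors. Each of these 3 differences had an exact permutation p of 0.1 (2-sided), the smallest that 3 arrays against 3 allow, and 0.15 after adjustment over 6 pairs. COL11A2 exceeded COL9A1 by 1.29 ± 0.22 (exact p = 0.1, adjusted 0.15), while COL2A1 differed from COL9A1 by 0.55 ± 0.42 (exact p = 0.4) and COL11A2 from COL2A1 by 0.73 ± 0.60 (exact p = 0.3), with arrays that overlapped. With the mean of all sets of a gene in place of the highest, COL2A1 minus COL9A1 turned to -1.14, COL2A1 minus COL11A1 shrank to 1.83 and COL11A2 minus COL2A1 grew to 2.69. The order of the changes of COL11A2, COL2A1 and COL9A1 therefore depended on the choice of set, whereas COL11A1 changed least of the 4 genes in either case.

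**Figure D2:**
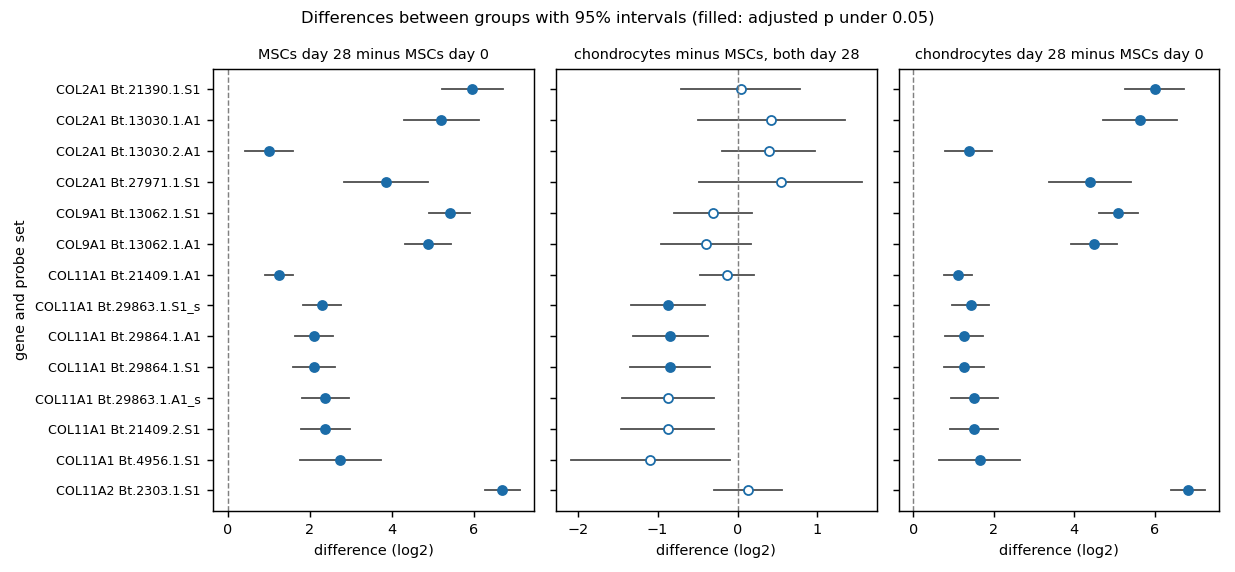
Differences (log2) for each of the 14 collagen probe sets in the 3 comparisons. Points are limma differences, lines are 95% intervals, and filled points passed an adjusted p of 0.05; all 14 sets are filled in both comparisons with day 0 MSCs, and 3 COL11A1 sets are filled, below 0, between chondrocytes and MSCs at day 28.

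After the same 28 days, COL11A1 was the only 1 of the 4 genes with a call between chondrocytes and MSCs, and it was lower in chondrocytes. A total of 3 of the 14 collagen sets were called lower and 0 higher by limma, beside 4.06% and 6.27% of all probe sets, and 6 of the 14 had an unadjusted p under 0.05. In 6 of the 7 COL11A1 sets every chondrocyte array lay below every day 28 MSC array, which was so for 13.5% of all probe sets. COL2A1, COL9A1 and COL11A2 did not pass in any of their 7 sets. Whether COL11A1 differed from the other 3 genes in this comparison was not tested.

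The COL11A1 set with the smallest p, Bt.29863.1.S1_s_at, was at 10.83, 10.73 and 11.28 in chondrocytes and at 11.90, 12.06 and 11.49 in day 28 MSCs of donors 1, 2 and 3. The groups did not overlap, but the donor 3 arrays were nearest to each other. The difference, chondrocytes minus MSCs, was -0.87 ± 0.20 (95% interval -1.33 to -0.41, adjusted p = 0.0265), 1.83-fold lower. Bt.29864.1.A1_at was at 10.19, 9.99 and 10.40 in chondrocytes and at 11.10, 11.39 and 10.59 in MSCs (-0.84 ± 0.21, adjusted p = 0.0346). Bt.29864.1.S1_at, from the same source sequence, was at 10.06, 10.02 and 10.02 in chondrocytes and at 11, 11.30 and 10.34 in MSCs (-0.85 ± 0.23, 0.0451). These chondrocyte arrays were almost level, and the spread came from the MSCs. The other sets below the highest were at -0.87 ± 0.26 for Bt.29863.1.A1_s_at (0.0662), -0.87 ± 0.26 for Bt.21409.2.S1_at (0.0672) and -1.09 ± 0.44 for Bt.4956.1.S1_at (0.165), and did not pass. The set of highest mean, Bt.21409.1.A1_at, was at 12.24, 12.26 and 12.41 in chondrocytes and at 12.46, 12.42 and 12.43 in MSCs, and its difference of -0.13 ± 0.15 did not pass (interval -0.47 to 0.20, adjusted p = 0.672).

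The size of the COL11A1 difference went with the donor. Over the 6 sets below the highest it was between -1.31 and -0.91 within donor 1, between -1.77 and -1.28 within donor 2, and between -0.39 and -0.03 within donor 3, always lower in chondrocytes. The day 28 arrays of donor 3 were also the 2 with low hybridisation controls, and at day 28 the effect of this donor cannot be told apart from that of the hybridisation. Without these 2 arrays all 6 sets were called, at -1.44 to -1.11, and with the low controls as a block 4 were. None of the 6 was called without donor 1, without donor 2, without chondrocyte replicate 1 or 2, without day 28 MSC replicate 1 or 2, or when only the 2 groups compared were fitted. Leaving out any day 0 array, which enters this comparison only through the estimate of spread, or centring arrays on ribosomal protein genes left 1 call, and leaving out day 28 MSC replicate 3 gave 6. The mean over all 7 sets of the gene passed, at -0.79 (adjusted p = 0.0393).

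**Figure D3:**
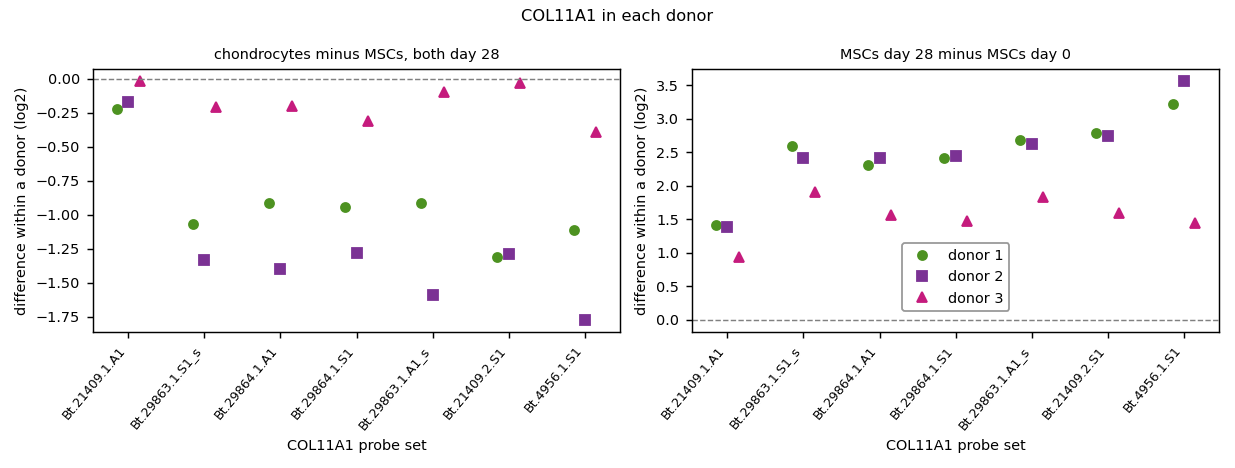
COL11A1 differences (log2) within each donor for its 7 probe sets, in order of mean signal. The left panel gives chondrocytes minus MSCs at day 28, where donor 3 stays between -0.39 and -0.02 and donors 1 and 2 reach -1.31 and -1.77; the right panel gives day 28 minus day 0 MSCs, where donor 3 has the smallest rise in every set.

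COL2A1 did not separate the day 28 groups. Bt.21390.1.S1_at was at 13.63, 13.60 and 13.96 in chondrocytes, against 13.68, 13.57 and 13.82 in MSCs, and its interval ran from -0.71 to 0.78 around a difference of 0.04. The 3 other sets, which stood lower on the scale, gave 0.39 to 0.54, and their intervals reached down to -0.50 and up to 1.56. In all 3 of these the chondrocytes of donor 1 were lowest, for example at 7.16, against 8.88 and 8.47 in donors 2 and 3, in Bt.27971.1.S1_at. Within donor 1 those sets were lower in chondrocytes than in MSCs (-0.59, -0.47 and -1.13), and within donors 2 and 3 they were higher, by 0.61 to 1.43. The set of highest mean differed by -0.05, 0.02 and 0.14 in donors 1, 2 and 3. It held the highest value on each of these arrays, compression there was not tested, and neither this nor its small group difference shows that COL2A1 was alike.

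COL11A2 was at 10.52, 10.19 and 10.45 in chondrocytes and at 10.59, 10.22 and 9.96 in day 28 MSCs, with overlapping arrays and a difference of 0.13 ± 0.19 (interval -0.29 to 0.55). COL9A1 was at 7.43, 7.43 and 8.03 in chondrocytes and at 8.17, 8.05 and 7.61 in MSCs by Bt.13062.1.S1_at (-0.31 ± 0.22, interval -0.80 to 0.18). Its other set gave -0.39 ± 0.25 (interval -0.96 to 0.17). In both COL9A1 sets chondrocytes were lower in donors 1 and 2 and higher in donor 3, so that here too donor 3 stood apart. These intervals leave room for differences of up to about 1 unit in COL9A1 and about 0.5 in COL11A2, and do not show that the groups were alike.

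Chondrocytes at day 28 had higher signals for all 4 collagen genes than day 0 MSCs. All 14 sets were called higher (limma, adjusted p between 9.22e-08 and 0.0196), beside 15.1% of all probe sets, and none of the 14 overlapped, beside 21.0%. This comparison uses the same arrays as the other 2, so that its values are set beside theirs and not counted as further evidence. COL11A2 was higher by 6.82 ± 0.19 (113-fold), against a difference of 6.70 between day 28 and day 0 MSCs. COL2A1 was higher by 6.00 ± 0.33 (64.0-fold), against 5.96, and COL9A1 by 5.10 ± 0.22 (34.2-fold), against 5.41, in their sets of highest mean. For COL11A1 the set of highest mean gave 1.11 ± 0.15, against 1.24, and the other 6 sets gave 1.26 to 1.65, against 2.10 to 2.74 in the MSCs. The call of Bt.4956.1.S1_at in COL11A1 (1.65 ± 0.44, adjusted p = 0.0196) ended without chondrocyte replicate 1 (1.48, 0.0726) or 2 (1.59, 0.0576), without day 0 replicate 1 (1.60, 0.0615) or 2 (1.64, 0.0544), and without donor 1 (1.42, 0.20) or donor 2 (1.58, 0.0930). The calls of Bt.29863.1.A1_s_at, Bt.29864.1.A1_at and Bt.29864.1.S1_at also ended without donor 1 (1.38, 1.20 and 1.16, with adjusted p from 0.0573 to 0.0711).

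By group means, COL11A1 was highest in day 28 MSCs, then in chondrocytes and then in day 0 MSCs in all 7 sets, except that the first step of Bt.21409.1.A1_at turned to 0.01 with arrays centred on ribosomal protein genes. That step, from day 28 MSCs to chondrocytes, passed the test in 3 sets. COL2A1 was highest in chondrocytes, then in day 28 MSCs, in all 4 sets, though Bt.21390.1.S1_at turned to -0.03 with arrays centred on the median. COL11A2 had the same order in its 1 set. Within donors 1, 2 and 3, chondrocytes minus MSCs was -0.05, 0.02 and 0.14 for Bt.21390.1.S1_at and -0.08, -0.02 and 0.48 for COL11A2. The orders of Bt.21390.1.S1_at and of COL11A2 thus leaned on donor 3. In the other COL2A1 sets chondrocytes were higher in both donors 2 and 3 and lower in donor 1. COL9A1 was highest in day 28 MSCs in both sets. In these 3 genes the neighbouring day 28 groups did not differ beyond their spread.

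For each collagen gene the genes of nearest profile over the 9 arrays were found. Likeness was measured as the root mean square distance on the log2 scale between profiles centred on their own means, over genes with a named probe set. Nearest to COL2A1 were LRRC1 (0.42), which encodes a scaffold protein with leucine-rich repeats, CLEC3A (0.46), a lectin gene known from cartilage, and SORL1 (0.49), a sorting receptor gene. COL9A1 itself lay at 0.51 and COL11A2 at 0.62 from COL2A1, and COL11A1 at 2.28. COL9A1 had JPH1 (0.26), a gene of membrane junctions, PDE6C (0.41), a phosphodiesterase gene, and the cartilage link protein gene HAPLN1 (0.42) as its nearest. COL11A2 was nearest to ZNF385B (0.29), a zinc finger gene, to SMOC2 (0.30), which encodes a secreted matrix protein, and to RFLNA (0.42), a filamin regulator. Near profiles could still part between the day 28 groups. RFLNA was higher in chondrocytes than in MSCs by 1.02 ± 0.20, where COL11A2 was at 0.13. PDE6C was at -0.75 ± 0.28, a value within the interval of COL9A1 (-0.31 ± 0.22, interval -0.80 to 0.18). Neither gap was tested. COL11A1, by its set of highest mean, lay nearest to RPAP1 (0.11), a gene linked to RNA polymerase II, to the lipid carrier gene APOD (0.12) and to HUWE1 (0.13), a ubiquitin ligase gene, all with small rises over a level already present at day 0. SMOC2, named above as near to COL11A2, stood instead at 10.28 in chondrocytes, 10.13 in day 28 MSCs and 2.92 in day 0 MSCs.

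Genes that build, modify or surround the fibril were measured through 9 lists, of whose 99 genes 69 had a named probe set, with the set of highest mean standing for each gene. Over the 28 days in MSCs 29 of the 69 rose and 12 fell, whereas 13.5% of all 9155 named genes rose and 21.0% fell. Genes of procollagen modification and folding rose in 8 of 18 cases and fell in 1, with a median difference of 0.31 against -0.11 over all genes. TMEM38B, counted among the 8 at 0.81, had a second set called lower, at -1.15. With the donor as a replicate block 2 fell in this list and 2 in that of procollagen export. COLGALT2, which adds galactose to hydroxylysine of collagen, rose by 8.0 ± 0.26 (adjusted p = 2.57e-07), at 10.48 in day 28 MSCs against 2.48 at day 0. The lysyl hydroxylase gene PLOD1 rose by 2.14 ± 0.16 (2.64e-05), while its second probe set was at -0.04. In procollagen export, 3 of 9 rose and 1 fell (median -0.05): CREB3L2, a transcription factor for secretory genes, rose by 1.87 ± 0.22 and MIA2, of the export machinery at the endoplasmic reticulum, by 1.04 ± 0.15. MIA3 was the 1 that fell (-1.41), and of its 4 other sets 2 were called lower and 1 higher. Of 7 genes of propeptide removal and crosslinking, 2 rose and 2 fell (median 0.65), led by the protease gene FURIN (1.71 ± 0.16, with a second set at 0.32 that did not pass) and the lysyl oxidase relative LOXL1 (-2.85 ± 0.36).

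Among proteins that bind the fibril, 7 of 11 rose and 1 fell (median 0.48). COMP, which bridges collagen molecules, rose by 8.50 ± 0.18 and CHAD, a leucine-rich cartilage protein that binds cells and collagen, by 8.04 ± 0.23. Of 5 other cartilage collagens 3 rose and 1 fell (median 1.98), with COL12A1, a fibril-associated collagen, at 1.98 ± 0.13 and COL6A2, of the pericellular microfibrils, at -1.52 ± 0.22. Of 5 fibrous fibril collagens 0 rose by limma (0 also at an unadjusted p under 0.05) and 2 fell, COL5A3 by 3.18 ± 0.48 (adjusted p = 0.00109) and COL1A1 by 0.56 ± 0.18 (0.044), with a median of -0.43 and a second COL1A1 set at -0.37 that did not pass. The other 3 did not pass, at -0.43 for COL1A2, 0.15 for COL3A1 and -0.11 for COL5A2. The collagen-binding integrin subunit gene ITGA10, known from chondrocytes, rose by 4.56 ± 0.38, the only call among 3 receptors, of which ITGA2 (0.38 ± 0.22) did not pass. Of 7 genes of collagen breakdown and uptake 4 fell and 1 rose (median -1.84), with the collagen-degrading cathepsin CTSK at -1.50 ± 0.18 and the membrane protease MMP14 at -2.08 ± 0.40. The 4 regulators with a named set all rose (median 2.88), led by WWP2, a ubiquitin ligase gene active in cartilage (4.48 ± 0.19), and the zinc finger gene ZBTB16 (3.20 ± 0.19). One of the 4, the coactivator gene PPARGC1A, was at 1.86 by its set of highest mean, while its other 3 sets, at 0.20 to 0.41, did not pass. SOX9, SOX5 and SOX6 had no named set.

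**Figure D4:**
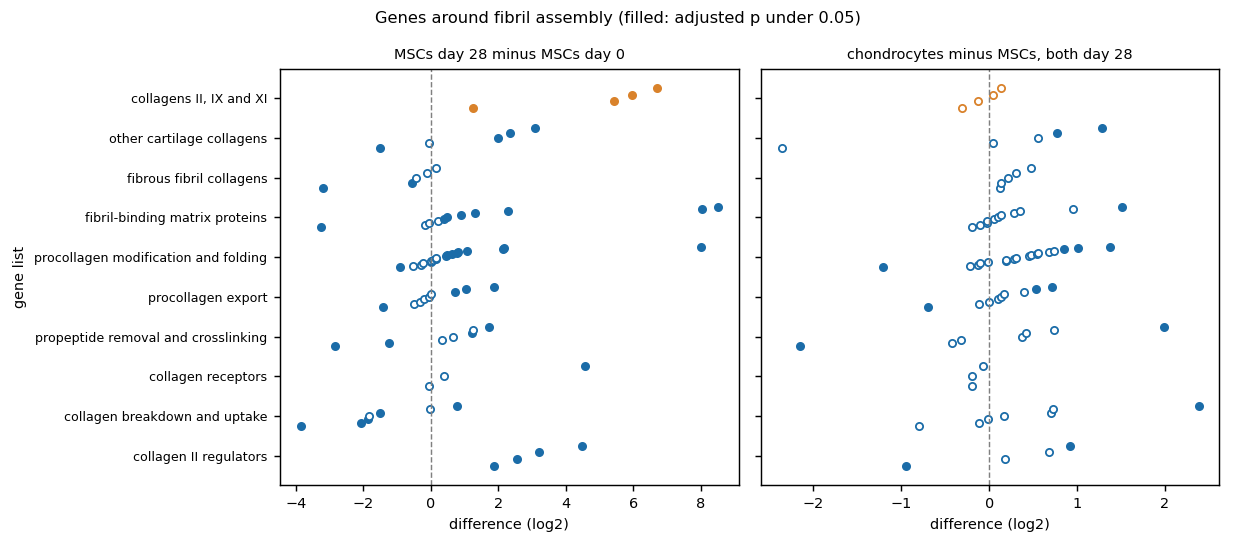
Differences (log2) of the genes in the 9 lists, 1 point per gene by its probe set of highest mean, with the 4 collagen genes on top in orange. Filled points passed an adjusted p of 0.05; the left panel gives day 28 minus day 0 MSCs, with 29 genes of the lists higher and 12 lower, and the right panel gives chondrocytes minus MSCs at day 28, with 11 higher and 4 lower.

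Between chondrocytes and MSCs at day 28, 11 of the 69 genes were higher and 4 lower, beside 8.35% and 4.81% of all named genes. Of the modification and folding genes 3 of 18 were higher and 1 lower (median 0.38, against -0.02 over all genes), with the prolyl hydroxylase subunit gene P4HA3 at 1.37 ± 0.19 (adjusted p = 0.00223) and the ion channel gene TMEM38B at -1.21 ± 0.17 (0.00220). LOXL1 was higher by 1.99 ± 0.36 and PCOLCE2, an enhancer of propeptide removal, lower by 2.15 ± 0.45 (a difference of -2.15), the 2 calls among 7. Of 5 other cartilage collagens COL6A2 (1.28 ± 0.22) and COL6A1 (0.77 ± 0.16) were higher, though neither of the other 2 COL6A1 sets, at 0.84 and 0.88, passed. In procollagen export TFG (0.71 ± 0.17) and SAR1B (-0.70 ± 0.17) led 2 higher and 1 lower calls of 9. Second sets of these 2 genes, at -0.10 and -0.89, did not pass. Fibrous collagens and receptors had 0 calls among 5 and 3 genes by limma, and 1 and 0 at an unadjusted p under 0.05. COL1A1 was at 0.47 ± 0.18 and COL5A2 at 0.21 ± 0.13, and the receptor subunits ITGB1 and ITGA10 were at -0.19 ± 0.14 and -0.19 ± 0.38. Single calls were found among fibril-binding proteins (OPTC, 1.51 ± 0.30) and breakdown genes (the collagenase MMP1, 2.38 ± 0.54), while ASPN (0.95 ± 0.41) of the first list and MRC2 (0.70 ± 0.24), a collagen uptake receptor, of the second did not pass. The regulators ZBTB16 (-0.95 ± 0.19) and FOXA3 (0.92 ± 0.25) were called in opposite directions. With the donor as a replicate block MRC2 passed (adjusted p = 0.0332) and FOXA3 did not (0.0558). Without the 2 arrays with low hybridisation controls 7 of the 69 were higher and 3 lower, and with arrays centred on ribosomal protein genes 15 were higher and 3 lower. The 11 became 6 or 7 without chondrocyte replicate 2 or 3, day 28 MSC replicate 1 or 2, or donor 3, and 1 without donor 1 or donor 2. The 4 became 1 or 2 without chondrocyte replicate 1 or 3 or without any 1 donor.

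Against day 0 MSCs, chondrocytes had 30 of the 69 genes higher and 8 lower, beside 15.1% and 20.9% of all named genes. COLGALT2 (8.53 ± 0.26), PLOD1 (2.13 ± 0.16, with a second set at -0.38), FURIN (2.13 ± 0.16), LOX, the lysyl oxidase itself (0.91 ± 0.20), COL12A1 (2.02 ± 0.13) and the fibril-forming collagen gene COL27A1 (2.89 ± 0.38) were among the higher ones. COL5A3 (-2.88 ± 0.48) and CTSK (-1.32 ± 0.18) were lower. COMP (8.60 ± 0.18), CHAD (7.85 ± 0.23), CREB3L2 (1.76 ± 0.22), MIA2 (1.17 ± 0.15), ITGA10 (4.37 ± 0.38), WWP2 (4.67 ± 0.19), FOXA3 (3.48 ± 0.25) and MRC2 (1.46 ± 0.24, with a second set at 0.28 that did not pass) were also higher. COL3A1 (0.26 ± 0.13) and ITGB1 (-0.25 ± 0.14) did not pass. The 8 lower calls became 5 without chondrocyte replicate 1 and 3 without donor 1.

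The labels of the groups were set against markers of the cells they name. Of 6 measured chondrocyte markers other than the 4 collagens, 5 were called higher in chondrocytes and 5 in day 28 MSCs than in day 0 MSCs. The shares of all named genes called higher were 15.1% and 13.5%. Their summed signal was 14.43 to 14.52 in chondrocytes, 14.28 to 14.59 in day 28 MSCs and 8.23 to 8.80 in day 0 MSCs. Of 9 marrow stromal markers 3 fell in MSCs over the 28 days and 0 rose by limma (1 at an unadjusted p under 0.05), with a sum of 10.67 to 10.75 at day 28 against 11.41 to 12.01 at day 0, led by CXCL12 (-4.07 ± 0.56) and the hyaluronan receptor gene CD44 (-2.22 ± 0.34). With the donor as a replicate block 5 of the 9 fell. Without the block, 21.0% of all named genes fell in this comparison and 13.5% rose.

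Markers of other tissues were measured beside the collagens, in a comparison where 13.5% of all named genes rose and 21.0% fell. In MSCs from day 0 to day 28, 1 of 5 adipocyte markers rose, LPL (4.54 ± 0.36), and the list's sum was 9.18 to 10.49 at day 28 and 6.39 to 7.34 at day 0. Of 7 endothelial markers TEK (2.22 ± 0.29) and ERG (0.72 ± 0.23, with a second set at -0.07 that did not pass) rose, with sums of 8.48 to 8.65 and 7.41 to 7.97. Of 7 skeletal muscle markers MYH7 (2.20 ± 0.16) rose and ACTA1 (-0.46 ± 0.15) fell, with sums of 12.83 to 13.15 and 11.77 to 12.00. For 5 osteoblast markers, of which ALPL rose (5.95 ± 0.84, with a second set at 0.73 that did not pass), the sums overlapped at 13.20 to 13.37 and 13.08 to 13.48. IBSP held most of that sum, at 12.89 at day 28 and 12.80 at day 0, and a second IBSP set was called at 4.19. Of 10 blood cell markers 1 rose and 3 fell, with CD68 at -1.47 ± 0.31 and CSF1R at 1.62 ± 0.38, and sums of 7.19 to 7.36 and 6.54 to 8.03. Between the day 28 groups 8.35% of all named genes were called higher in chondrocytes and 4.81% lower. Beside the lower COL11A1 signal in chondrocytes, the blood cell sum was 8.43 to 8.92, against 7.19 to 7.36 in day 28 MSCs. Of the 10 blood cell markers 1, CSF1R (1.60 ± 0.38), was called. CD14 was at 2.45 ± 0.69 and did not pass (adjusted p = 0.0551), but it did with the donor as a replicate block (0.0366), and its second set was called at 1.47. The stromal sum was 11.12 to 11.52 in chondrocytes, against 10.67 to 10.75 in day 28 MSCs. Among its 9 genes NT5E (0.92 ± 0.20) was higher and ALCAM (-1.43 ± 0.27) lower, with a median difference of -0.37. NT5E held most of that sum, at 10.79 in chondrocytes and 9.87 in MSCs, and its second set, at 0.37, did not pass. The muscle sum was 12.44 to 12.50, against 12.83 to 13.15, with TNNT3 (1.00 ± 0.19) higher and CKM (-0.83 ± 0.17) lower among its 7. The second CKM set, at -0.25, did not pass. Of the 6 chondrocyte markers, CNMD, which encodes a cartilage inhibitor of vessel growth, was higher in chondrocytes by 3.93 ± 0.35, the only call. RMA values have no zero, so that no marker could be listed as absent. The part of these cell types in the collagen differences was not tested.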

How the data were processed

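The deposited table holds log2 values of 24128 probe sets on 9 single-colour arrays. Per the submitters' processing notes the authors used RMA, which corrects background, normalizes quantiles and summarises probes; its version is not given in the sources used here. Per the labels' protocols, RNA was primed with poly(T) and amplified, which favours 3′ ends. The 112 control sets were left out. Symbols came from the platform annotation, updated by gene identifier through a RefSeq table (ARS-UCD2.0).

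Group means of all 9 arrays were compared by lmFit and eBayes of limma (version 3.58.1, under R 4.3.3), with no donor term. On simulated data for MSC_day28 minus MSC_day0, 51 of 100 sets changed by 1 and 88 of 100 changed by 2 were recovered among 24016, with 7 false calls of 146. Far fewer sets changed there than were called in the data, and its noise was independent between arrays. These rates therefore do not give the power or error rate of the comparisons above. Labels number the donors, which pairs arrays by calf. Deviations from group means correlated from 0.108 to 0.412 within donors and from -0.303 to 0.152 between donors. Replicates are calves. With no donor term, the limma p-values rest on the spread between the 3 calves within groups, shared over groups and in part over probe sets. They do not measure the spread of differences within calves.

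Named were all collagen sets, the 2 genes of smallest p per list and comparison (of the marker lists only some of these), and the 3 nearest profiles per collagen gene. In day 28 against day 0 MSCs COL1A2, COL3A1, COL5A2, PPARGC1A, TMEM38B, MIA3, IBSP and CKM, and further probe sets of list genes were named after their values were seen. The members and lists were chosen with earlier results of these data known. No sequence of probes or genes was used here.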

Additional observations from a re-analysis of the deposited data

How the results depend on the processing

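The rises of the 14 collagen sets kept their direction under all 23 other fits. With the donor as a replicate block 14 were called in each comparison with day 0 MSCs, as without it. Between the day 28 groups 3 were called, also as without it, and the block changed no call of a collagen set. Some of its changes to list genes stand beside those lists. In chondrocytes against day 0 MSCs the lower calls became 1 in modification and folding (0 without the block) and 2 in procollagen export (1 without it). They also became 2 in propeptide removal and crosslinking and 2 among ribosomal protein genes (1 without it in each). Between the day 28 groups the adipocyte marker PPARG was called lower with the block (-1.91, adjusted p = 0.0224). Of the 14, 13 to 14 were called in day 28 against day 0 MSCs when a replicate or donor was left out, and 10 to 14 in chondrocytes against day 0 MSCs. Between chondrocytes and day 28 MSCs, the sets called lower numbered 5 with arrays centred on the median, with a filter at the median signal, with a trended and robust variance and with array weights, 1 with centring on ribosomal protein genes, 0 with the 2 groups alone, 6 without the 2 arrays whose hybridisation controls were low, and 0 to 6 with a replicate or donor left out. COL11A1 there passed by the mean of its sets, at -0.79. For the differences of change, the mean of all sets gave 4.52 for COL11A2 minus COL11A1, 2.69 for COL11A2 minus COL2A1, 1.83 for COL2A1 minus COL11A1, 2.97 for COL9A1 minus COL11A1 and, reversed, -1.14 for COL2A1 minus COL9A1; the cause was not tested. Of the 69 list genes, a filter at the median signal, which tests fewer genes, left 7 lower in day 28 against day 0 MSCs, 2 between the day 28 groups and 4 in chondrocytes against day 0 MSCs. With a replicate or donor left out, 1 to 11 were higher and 1 to 4 lower between the day 28 groups, and 3 to 8 were lower in chondrocytes against day 0 MSCs. Without the arrays with low controls 7 were higher between the day 28 groups. Centring on ribosomal protein genes moved the median of all probe sets between the day 28 groups to 0.12 from -0.03, and that of chondrocytes against day 0 MSCs to 0.16 from -0.07, where centring on the median gave -0.19. Sets near the top of the scale (COL2A1, COL11A1) and near its low end at day 0 (COL9A1, COL11A2) limit how far sizes can be read, and 3 arrays a group limit the precision.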
